A study of Mus musculus with 8 samples.

Results

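The Reg genes encode small secreted proteins built around a C-type lectin domain. In mouse the array carried probe sets for 5 of them: Reg3g, Reg3b and Reg3a of the Reg3 branch, and Reg1 and Reg2. Every probe set that the array annotation assigns to one of these 5 genes alone was taken, which gave 10 probe sets, 2 per gene, of 12488 on the array. The family was chosen by the measured rise of Reg3g in the lungs of C3H-HeOuJ mice that breathed ozone (adjusted p 0.0105 in limma over all probe sets), and the other 4 genes were added as its relatives. Values of that comparison are therefore given for the members as a description, without a test.

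Reg3g is an antibacterial lectin: it binds the peptidoglycan of Gram-positive bacteria, is made by epithelium of the gut and the airways, and is switched on there by microbial signals and by cytokines that act through STAT3. Reg3b, known first as pancreatitis-associated protein, is a close relative made by inflamed pancreas and gut. Reg1 and Reg2 are best known from the exocrine pancreas and from regenerating islets. Reg3a is a further pancreatic and intestinal member.

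Total RNA of whole mouse lung was read on 8 arrays. Mice of the substrains C3H-HeJ and C3H-HeOuJ, called HeJ and HeOuJ from here on, breathed either filtered air or ozone, and each of the 4 combinations has 2 arrays. HeJ mice carry a missense mutation of the endotoxin receptor gene Tlr4, whereas HeOuJ mice carry the intact gene. An exposure time of 72 h is given for both HeOuJ groups, and neither a time for HeJ, an ozone dose, nor the age or number of the mice is given. The series title names airway hyperpermeability in ozone as the subject. The labels name the arrays of a group 1a and 1b without saying that they came from separate animals, so each p-value measures only the spread between arrays, which may be technical.

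The 5 genes lie together on mouse chromosome 6 (RefSeq, GRCm38.p6), in a stretch of 98.0 kb that runs from Reg3b (78370885 to 78373466) through Reg3a (78380709 to 78383839), Reg2 (78405155 to 78408099) and Reg1 (78425983 to 78428668) to Reg3g (78466269 to 78468874). RefSeq places Reg3d and a pseudogene in the same stretch, 7 genes in all. Reg3g is transcribed from the minus strand and the other 4 members from the plus strand. The 100 bases before each start site are shown because they let Reg3g be set beside the relatives whose RNA is described next. Each is written 5′ to 3′ on the strand of its gene, with the letters TATAAA in capitals.

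Reg3g, chr6:78468875-78468974, minus strand: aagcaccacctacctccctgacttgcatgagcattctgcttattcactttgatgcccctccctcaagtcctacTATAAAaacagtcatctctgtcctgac
Reg3b, chr6:78370785-78370884, plus strand: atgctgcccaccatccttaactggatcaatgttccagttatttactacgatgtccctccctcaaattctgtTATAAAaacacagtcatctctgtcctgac
Reg3a, chr6:78380609-78380708, plus strand: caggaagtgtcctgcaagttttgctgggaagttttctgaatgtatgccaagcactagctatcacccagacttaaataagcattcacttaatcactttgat
Reg1, chr6:78425883-78425982, plus strand: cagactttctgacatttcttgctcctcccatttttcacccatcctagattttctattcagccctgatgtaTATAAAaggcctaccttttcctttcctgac
Reg2, chr6:78405055-78405154, plus strand: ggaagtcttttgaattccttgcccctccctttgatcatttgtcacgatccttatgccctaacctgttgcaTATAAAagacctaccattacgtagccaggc

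The stretch before Reg3b was the one most like that of Reg3g. In a global alignment, 73 of 102 columns were identical (71.6%), and Reg3b ranked 1 among 32850 mouse promoter entries by alignment score. The stretches of Reg3a, Reg1 and Reg2 had 48.1%, 49.5% and 52.3% identity with that of Reg3g and ranked 1523, 1117 and 1117. The letters TATAAA, searched on both strands, stood in the 100 bases of Reg3g, Reg3b, Reg1 and Reg2 and not in those of Reg3a, and 5.56% of all promoter entries held them in that window. The end of the Reg3a stretch resembles the first part of the Reg3g stretch, so these windows are offset from each other. The identity of Reg3a and its lack of the letters therefore hold only for the window before its annotated start. Bases beyond that start were not searched. The letters TTCNNNGAA, a form that STAT factors bind, were searched over the 250 bases before each start site. They were found once, before Reg3b, 129 to 121 bases upstream of its start, while 7.02% of all entries held them. These are matches of letters and not measured sites.

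On each Reg3g probe set the ozone arrays all lay above the air arrays in both substrains, which held for no other member. The HeOuJ part of this order belongs to the comparison that chose the family. How many of all probe sets had the same order, or had 4 groups without overlap as described next, was not counted. No rarity is claimed for either. On the brighter Reg3g probe set the 4 groups did not overlap. On the probe set 96064_at the intensities in HeOuJ were 249.7 and 286 in air and 1401 and 1313 in ozone. In HeJ they were 493 and 562 in air and 803 and 874 in ozone. From lowest to highest, the groups therefore ran HeOuJ air, HeJ air, HeJ ozone and HeOuJ ozone, and no array of one group reached the range of the next.

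**Figure D1:**
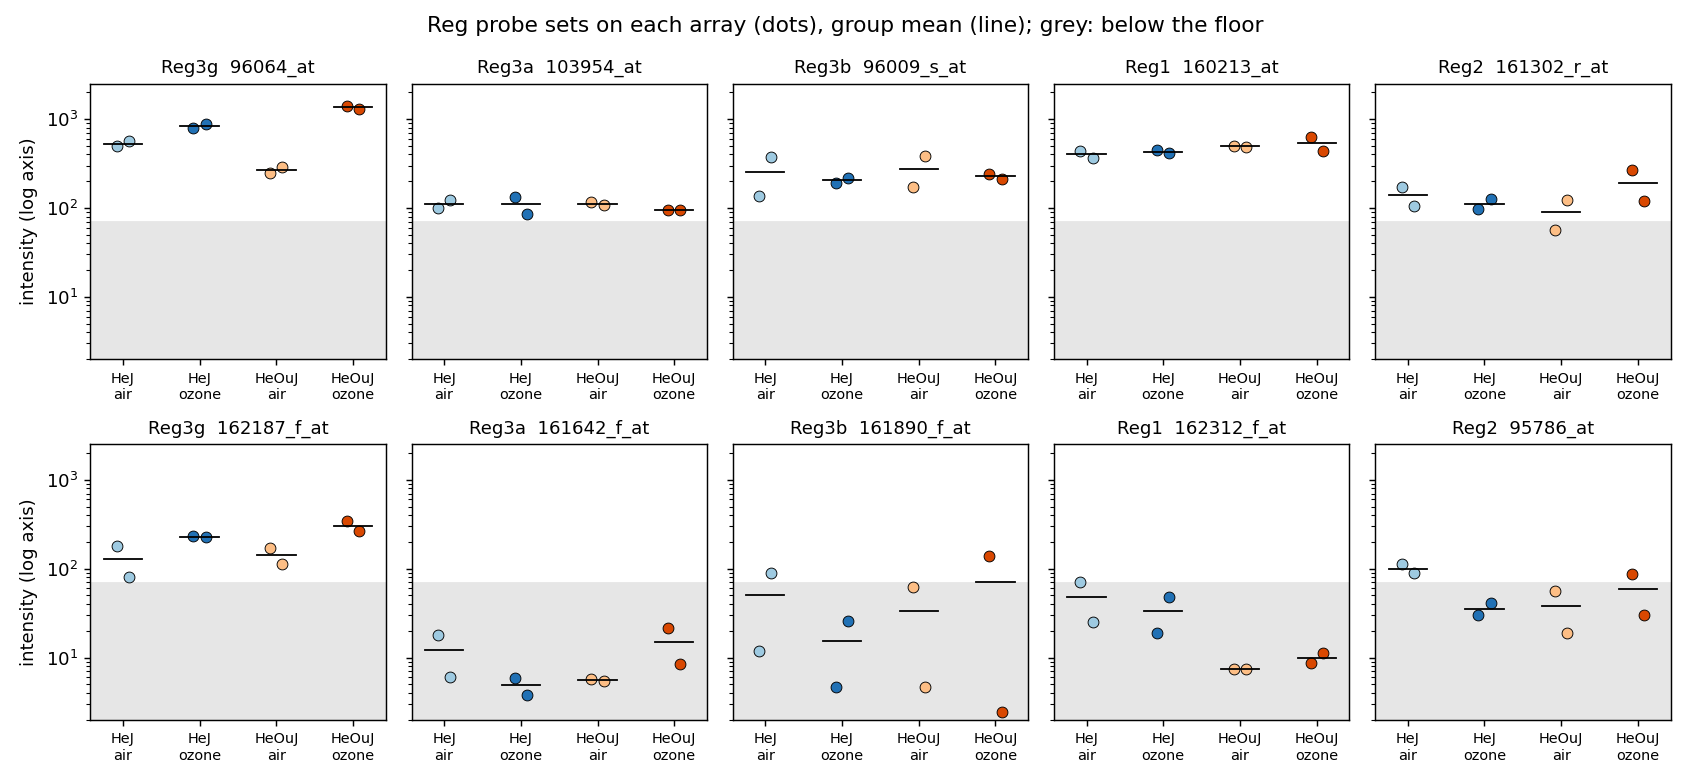
Intensity (log axis) of the 10 Reg probe sets on each of the 8 arrays, with the group mean as a line and the range below the floor of 69.63 in grey. Reg3g 96064_at runs from 249.7 in HeOuJ air to 1401 in HeOuJ ozone without overlap of the groups. On most of the other Reg probe sets shown, the arrays of different groups are mixed. How many of all probe sets on the array have groups without overlap was not counted.

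In HeOuJ the mean intensity of Reg3g 96064_at was 268 ± 25.6 in air and 1357 ± 62.6 in ozone (SD, n = 2 arrays each), a log2 fold change of 2.34 (SE 0.21) or 5.08-fold. This is the value that chose the family. In HeJ, whose arrays entered that choice only through the spread, floor and filter shared by all 8 arrays, the means were 527 ± 49.0 and 838 ± 50.6, a log2 fold change of 0.67 (SE 0.21) or 1.59-fold. Both HeJ ozone arrays lay above both air arrays, and 430 of the 10953 probe sets tested had a HeJ log2 change as high or higher. The HeJ rise did not pass, with an adjusted p of 0.946 in limma after Benjamini-Hochberg adjustment over all probe sets.

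No member passed in HeJ, and nor did any other probe set (0 of 10953, 0%), although 476 had an unadjusted p under 0.05 in limma. The smallest adjusted p of that comparison was 0.136.

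The HeOuJ effect of Reg3g 96064_at exceeded the HeJ effect by 1.67 on the log2 scale (SE 0.29). On this probe set both ends of the comparison contributed: in air HeOuJ lay below HeJ, with a log2 difference of -0.98 (SE 0.21). In ozone HeOuJ lay above, with 0.70 (SE 0.21). These 3 differences share arrays with the comparison that chose the family, so no p is given for them and they are not separate results.

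The second probe set of Reg3g, 162187_f_at, was dimmer and its replicates lay further apart. Its suffix marks probes that, by the manufacturer's naming, can also bind other members of a sequence family. It read 178 and 79.8 in HeJ air, 232 and 227 in HeJ ozone, 171 and 114 in HeOuJ air, and 341 and 268 in HeOuJ ozone. Ozone arrays were again above air arrays in both substrains, but the air groups of the substrains overlapped.

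On 162187_f_at the log2 fold change was 0.95 in HeJ (SE 0.46, 95% interval -0.11 to 1.996, adjusted p 1 in limma) and 1.12 in HeOuJ (SE 0.46). The HeJ value was 1.525 without the array HeJ air 1a and 0.36 without HeJ air 1b. The effects of the substrains differed by 0.17 on this probe set (SE 0.65, 95% interval -1.31 to 1.66), against 1.67 on 96064_at. The interval on 162187_f_at is too wide to say whether the substrains differed there.

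**Figure D2:**
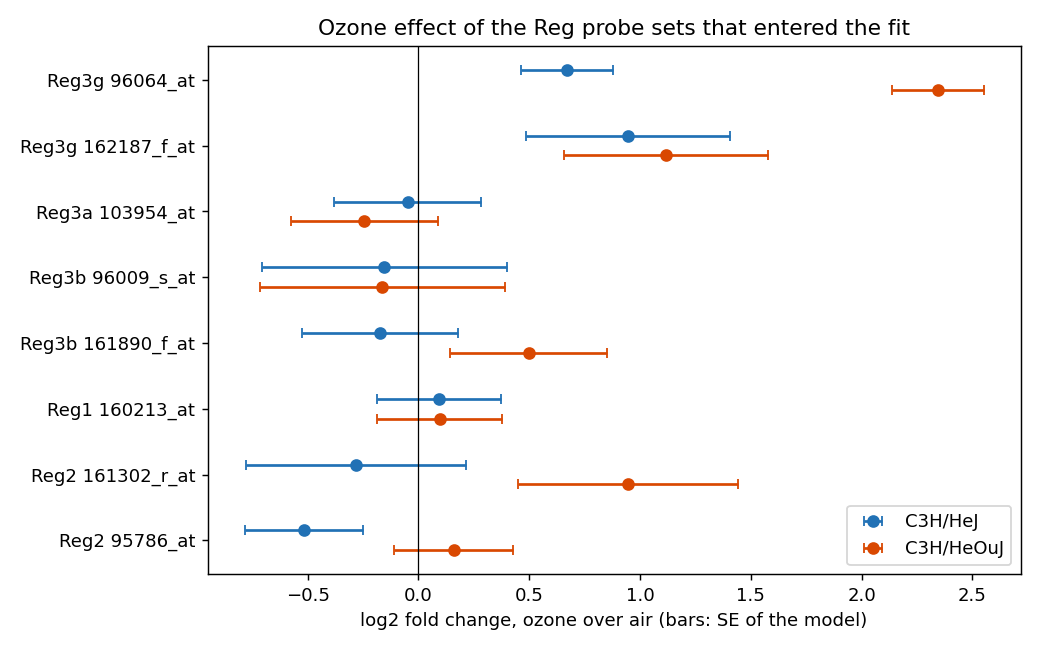
Log2 fold change of ozone over air, with the standard error of the model, for the 8 Reg probe sets that entered the fit, in C3H/HeJ (blue) and C3H/HeOuJ (orange). Both Reg3g probe sets lie above 0 in both substrains, and 96064_at in C3H/HeOuJ stands at 2.34.

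None of the relatives was higher in ozone by more than its standard error in both substrains. Of the 8 probe sets of the other 4 genes, 6 were above the floor on at least 2 arrays and entered the fit. Their log2 fold changes ran from -0.52 to 0.09 in HeJ, 1 higher and 5 lower, and from -0.24 to 0.94 in HeOuJ, 4 higher and 2 lower. None of the 6 passed in HeJ. In HeOuJ 14 of 10953 probe sets passed as higher (0.128%) and 36 as lower (0.329%). Reg3g 96064_at is among the former by the choice of the family, so nothing is read from the members' share. Over all probe sets tested, the median was 0.0092 in HeJ and 0.023 in HeOuJ, and 51.2% and 52.2% were higher in ozone.

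Reg3b, whose upstream stretch is the nearest to that of Reg3g, was measured on 96009_s_at at 138 and 375 in HeJ air, 191 and 218 in HeJ ozone, 172 and 379 in HeOuJ air, and 243 and 213 in HeOuJ ozone. Probe sequences were not at hand, so binding of 96009_s_at or the other Reg probe sets to RNA of relatives was not checked. In both substrains the ozone arrays lay between the air arrays, array 1a being low and array 1b high in air. The log2 fold change was -0.16 in HeJ (SE 0.55, 95% interval -1.42 to 1.11, adjusted p 1 in limma) and -0.16 in HeOuJ (SE 0.55, 95% interval -1.43 to 1.10). With the actin and Gapdh ratios described further on as covariates, the HeOuJ change of Reg3b on this probe set was 2.48 (SE 1.72) and 1.20 (SE 0.83), so its HeOuJ response is not settled by these arrays. Its other probe set, 161890_f_at, was above the floor on 2 arrays, HeJ air 1b at 88.5 and HeOuJ ozone 1a at 139. On that probe set the replicates of those groups read 11.95 and 2.45, so it carries no usable level.

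Reg1, on its brighter probe set, was above the floor on all 8 arrays and had nearly equal changes in the substrains. On 160213_at it read 442 and 363 in HeJ air, 445 and 411 in HeJ ozone, 503 and 481 in HeOuJ air, and 635 and 435 in HeOuJ ozone. Air and ozone arrays overlapped in each substrain. The log2 fold change was 0.09 in HeJ (SE 0.28, 95% interval -0.55 to 0.74, adjusted p 1 in limma) and 0.10 in HeOuJ (SE 0.28, 95% interval -0.55 to 0.74). Both HeOuJ air arrays lay above both HeJ air arrays, by 0.30 on the log2 scale (SE 0.28), which is about the standard error. The second Reg1 probe set, 162312_f_at, was above the floor on 1 array only and was not tested; it ranged from 7.45 to 71.6.

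Reg2 was dim, and its probe sets differed from each other. On 161302_r_at it read 173 and 104 in HeJ air, 96.9 and 126 in HeJ ozone, 57.2 and 123 in HeOuJ air, and 265 and 119.6 in HeOuJ ozone. Its HeOuJ log2 fold change of 0.94 (SE 0.50, 95% interval -0.19 to 2.08) moved with single arrays: it was 0.37 without HeOuJ ozone 1a, 1.52 without HeOuJ ozone 1b, 0.53 without HeOuJ air 1a and 1.36 without HeOuJ air 1b. On 95786_at Reg2 read 112 and 88.9 in HeJ air and lay below the floor on both HeJ ozone arrays (30.1 and 40.8) and both HeOuJ air arrays (56.1 and 19.1). The HeOuJ ozone arrays read 86.8 and 30.1, on either side of the floor. The HeJ log2 fold change on 95786_at was -0.52 (SE 0.27, 95% interval -1.13 to 0.10, adjusted p 1 in limma), with the ozone side set by the floor. On 161302_r_at it was -0.28 (SE 0.50, 95% interval -1.41 to 0.85).

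Reg3a was near the floor throughout. On 103954_at it read 98.8 and 124 in HeJ air, 133 and 86.0 in HeJ ozone, 116 and 108 in HeOuJ air, and 94.2 and 94.7 in HeOuJ ozone. The HeOuJ ozone arrays were below the HeOuJ air arrays, but by a log2 change of only -0.24 (SE 0.33, 95% interval -0.9998 to 0.51). In HeJ the change was -0.05 (SE 0.33, 95% interval -0.80 to 0.71, adjusted p 1 in limma), with overlapping arrays. Its second probe set, 161642_f_at, was below the floor on all 8 arrays, at 3.78 to 21.8, and was not tested. For Reg3a, Reg2 and the dimmer probe sets a change in a low level could be hidden, since values under the floor carry no order.

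RNA quality measures differed between the HeOuJ ozone arrays and the rest. The 5′ to 3′ intensity ratio of the actin controls, a measure of how complete the labelled RNA is, was 0.766 and 0.756 in that group and 0.432 to 0.603 on the remaining 6 arrays. With this ratio as a covariate, whose values do not overlap between HeOuJ air and ozone, Reg3g 96064_at had 2.59 (SE 0.75) in HeOuJ and 0.75 (SE 0.33, adjusted p 1 in limma) in HeJ, whereas 162187_f_at had -1.32 (SE 1.38) and 0.14 (SE 0.60). With the Gapdh ratio in its place, 96064_at had 2.55 (SE 0.36) and 162187_f_at 0.02 (SE 0.70) in HeOuJ. The relatives' HeOuJ changes moved as well: with the actin ratio Reg3a 103954_at had 0.95 (SE 1.10), Reg1 160213_at -0.58 (SE 0.99), Reg2 161302_r_at -1.36 (SE 1.55) and 95786_at -0.64 (SE 0.92), and Reg3b 161890_f_at 0.89 (SE 1.26). With the Gapdh ratio these were -0.36, -0.40, 0.70, -0.15 and 0.098. Each of these actin values lies within its standard error of 0.

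**Figure D3:**
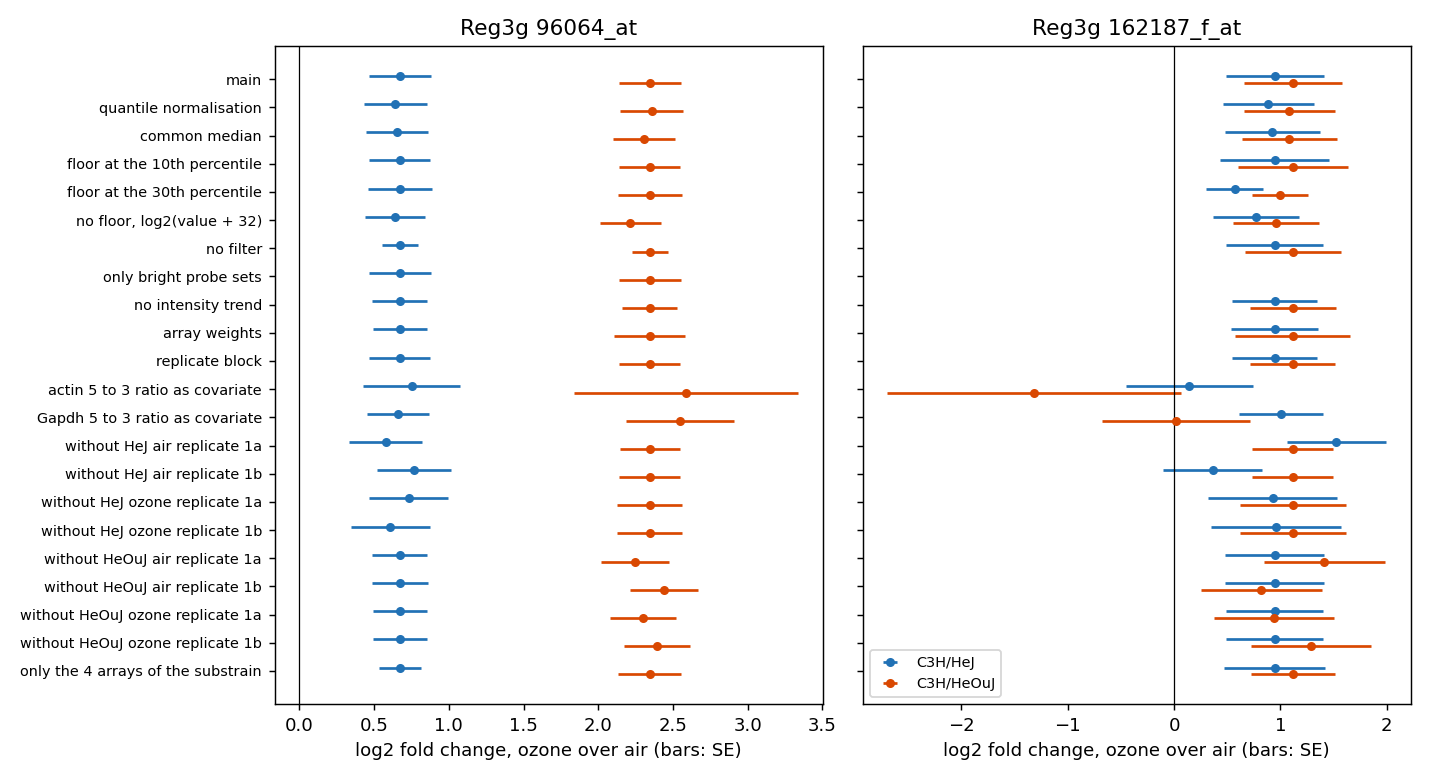
Log2 fold change of ozone over air with its standard error for the Reg3g probe sets under each way of processing, in C3H/HeJ (blue) and C3H/HeOuJ (orange). Reg3g 96064_at stays between 0.58 and 0.77 in C3H/HeJ and between 2.21 and 2.59 in C3H/HeOuJ, while 162187_f_at falls to -1.32 in C3H/HeOuJ with the actin ratio as covariate.

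Most lung epithelial markers were bright on every array, and Sftpc was brighter in HeOuJ ozone. Sftpd, Cbr2 and Tekt1 were dim, and Tekt1 lay under the floor in HeOuJ air 1b (66.3) and HeOuJ ozone 1b (66.5). All 8 alveolar markers on the array were above the floor, and their summed intensity was 202537 and 208906 in HeOuJ ozone against 143307 to 178401 in the other groups. Sftpc, the surfactant protein of type 2 cells, carried that difference, with 100640 and 77498 against 39537 to 56980. Without Sftpc the other 7 summed to 108266 and 125039 in HeOuJ ozone and 98372 to 121421 elsewhere, which overlap. In HeOuJ 6 of the 8 were higher and 2 lower in ozone, Sftpb and Sftpd, and none passed. The 6 airway secretory and ciliated markers summed to 122229 and 124261 in HeOuJ ozone and to 82239 to 115980 elsewhere. Scgb1a1, Cyp2f2 and Aldh1a1 made up most of that sum, and each of them overlapped between groups. Their lower HeOuJ ozone arrays read 62015, 27339 and 25693, against up to 62463, 28294 and 26621 in other groups. In HeOuJ 4 of the 6 were higher and 2 lower in ozone, Foxj1 and Cbr2, and none passed. Of 7 endothelial markers 2 were higher and 5 lower in HeOuJ and none passed, with sums of 35878 and 40557 in HeOuJ ozone and 40580 to 47475 elsewhere. The summed intensity of the 13 neutrophil markers overlapped, at 8982 to 10899 in HeOuJ ozone and 8817 to 10239 elsewhere. Single markers moved in opposite directions: in HeOuJ 9 were higher and 4 lower in ozone, and none passed. Lcn2 read 2695 and 2387 in HeOuJ ozone against 899 to 1571 elsewhere, and Elane 496 and 568 against 333 to 466. S100a8, among the lower ones, read 2936 and 2468 in HeOuJ air and 1506 and 1779 in HeOuJ ozone. In whole lung, fewer or more cells of a type and less or more RNA per cell cannot be told apart, and the part of these shifts in the Reg3g values was not tested.

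Pancreas and gut, where Reg genes are abundant, were checked through their markers. Of 17 pancreas markers on the array, 14 were above the floor on at least 2 arrays. The exocrine markers Cel (626 to 894), Ctrb1 (423 to 1172), Cela1 (383 to 1008) and Cela2a (205 to 548) were above it on all 8. The source of these readings was not tested. The islet genes Ins2 and Iapp were below the floor on all 8 arrays. The islet hormone gene Gcg was above it on both HeOuJ air arrays, at 120 and 94.9, and Sst on 3 arrays of 3 groups, at 101 to 165. The summed intensity of the 17 was 6722 to 7395 in HeJ air, 7188 to 7881 in HeJ ozone, 7430 to 8074 in HeOuJ air and 7362 to 9130 in HeOuJ ozone. The brightest of them, Pla2g1b, a secreted phospholipase, read 3154 to 4697. Clps, the colipase of the exocrine pancreas, read 338 and 505 in HeOuJ ozone against 96.8 to 165 on the other arrays (log2 fold change in HeOuJ 1.61, SE 0.37, adjusted p 0.0987 in limma). Of 12 intestine and stomach markers 8 were above the floor on at least 2 arrays, with Anpep (473 to 1215) and Atp4a (396 to 703) above it on all 8. Vil1, Cdx2, Apoa1 and Atp4b were below it on all arrays. The sum of the 12 was 1651 to 2429 in HeOuJ ozone against 1784 to 2576 in the other groups. The 9 squamous markers summed to 2609 to 3796 in HeOuJ ozone and to 2798 to 3961 elsewhere. Of these, 7 were above the floor on at least 2 arrays, and Krt14 and Krt15 were below it throughout. Krt4 (1012 to 1772.5), Krt6a (481 to 940) and Lor (448 to 903) were among those above it on all 8 arrays.

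Genes known to act upstream of Reg genes were tested beside Reg3g where the array allowed. Of 34 listed cytokines, receptors and members of the STAT3 relay, 24 were tested, and none passed in either substrain. The listed Il22, Il22ra1, Il22ra2, Il17f, Il17rc, Il11, Il11ra1, Lif, Osm and Cntf were not tested, so nothing can be read for them. In HeJ, with a median log2 change of -0.045, 7 were higher in ozone. The other 17 were lower, or unchanged at the floor as Il6 and Tnf were. In HeOuJ 11 were higher and 13 lower (median -0.052, or 0.019 when a gene's probe sets were averaged). The medians over all 7629 genes were 0.0025 and 0.019.

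Stat3 itself, the factor that relays the signal, was level, at 2406 to 2927 on the 8 arrays, with log2 changes of 0.06 (SE 0.13) in HeJ and 0.14 (SE 0.13) in HeOuJ. Il6, a cytokine that activates it, was below the floor on the 4 HeJ arrays and both HeOuJ air arrays and read 152 and 81.0 in HeOuJ ozone. The inflammatory cytokine Tnf read 103 and 73.4 in HeOuJ air and 231 and 247 in HeOuJ ozone, a log2 change of 1.46 (SE 0.30, adjusted p 0.0781 in limma), and was below the floor on all HeJ arrays. The kinase Jak1 had -0.53 (SE 0.17, adjusted p 0.98 in limma) in HeJ and -0.41 (SE 0.17) in HeOuJ. Extl3, reported as a receptor of Reg proteins, had 0.05 (SE 0.22) in HeJ and -0.68 (SE 0.22, adjusted p 0.194 in limma) in HeOuJ.

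Among 23 other secreted antimicrobial proteins tested, 1 passed as higher and 1 as lower in HeOuJ, and none in HeJ. Over all 7629 genes, 10 passed as higher (0.131%) and 26 as lower (0.341%) in HeOuJ, and 3941 were higher and 3657 lower in ozone. In HeJ the counts were 3841 and 3788, which include genes unchanged at the floor, such as Il6 and Tnf. These calls are not firm: the 50 probe sets past the threshold in HeOuJ became 0 to 22 when 1 array was left out, and 0 with the actin or Gapdh ratio as covariate. Of the 23 antimicrobial genes, 16 were higher and 7 lower in HeOuJ (median 0.25), and 9 were higher and 14 lower in HeJ (median -0.13). Saa3, an acute phase amyloid made by epithelium and macrophages, had a log2 change of 2.32 (SE 0.32, adjusted p 0.0461 in limma) in HeOuJ, with 397 and 558 in HeOuJ air and 2562 and 2167 in HeOuJ ozone. In HeJ it read 551 and 280 in air and 979 and 1086 in ozone, a log2 change of 1.39 (SE 0.32, adjusted p 0.637 in limma). Chil3, which alveolar macrophages secrete as a chitinase-like lectin, passed as lower, at -1.19 (SE 0.18, adjusted p 0.0464 in limma) in HeOuJ. In HeJ it had -0.62 (SE 0.18, adjusted p 0.916 in limma), with 3061 and 2738 in air and 2062 and 1730 in ozone. Lcn2, a siderophore-binding protein often induced beside Reg3g, had 0.77 (SE 0.17, adjusted p 0.0939 in limma) in HeOuJ and -0.31 (SE 0.17) in HeJ.

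Of 16 epithelial injury and repair genes tested, 12 were higher in HeOuJ ozone (median 0.64) and 2 passed as higher, beside 3941 higher and 10 passing as higher of all 7629 genes. The 2 were the simple-epithelium keratins Krt18 (1.67, SE 0.17, adjusted p 0.0136 in limma) and Krt8 (0.99, SE 0.16). In HeJ 7 were higher and 9 lower (median -0.016, or 0.016 when a gene's probe sets were averaged), with Krt18 at 0.18 (SE 0.17) and Krt8 at 0.26 (SE 0.16). The list and the antimicrobial list were drawn up with earlier results of these arrays known, Saa3, Chil3 and the keratins among them, so their counts are not independent support for a theme.

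The probe sets whose pattern over the 8 arrays was most like that of Reg3g 96064_at belonged to other kinds of genes. By Pearson correlation of log2 intensity, the 5 named probe sets of highest r were those of Kif22 (0.975), a chromosome-binding kinesin, Csnk2a1 (0.966), a catalytic subunit of casein kinase 2, Mcm3 (0.962), a subunit of the DNA replication helicase, Pafah2 (0.956), a lipase of oxidised phospholipids, and Gclm (0.952), the modifier subunit of the first enzyme of glutathione synthesis. In all, 39 of 10952 probe sets had an r above 0.9 (0.356%). All 5 were lowest in HeOuJ air and highest in HeOuJ ozone, so the likeness rests largely on the arrays that chose Reg3g.

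The sizes differed: in HeJ these 5 had log2 changes of 0.12 to 0.59 and in HeOuJ of 0.78 to 2.45. Of the 5, the Kif22 probe set had the highest HeJ change, 0.59, with 463 and 504 in HeJ air and 749 and 709 in HeJ ozone. Within the family, 162187_f_at had an r of 0.68 with 96064_at and ranked 659 of 10952. Reg2 had 0.56 on 161302_r_at and 0.036 on 95786_at, and Reg3b had 0.47 on 161890_f_at and -0.08 on 96009_s_at. Reg1 160213_at had 0.12 and Reg3a 103954_at -0.42. With 8 arrays in 4 groups these values describe the arrays and carry no test.

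**Figure D4:**
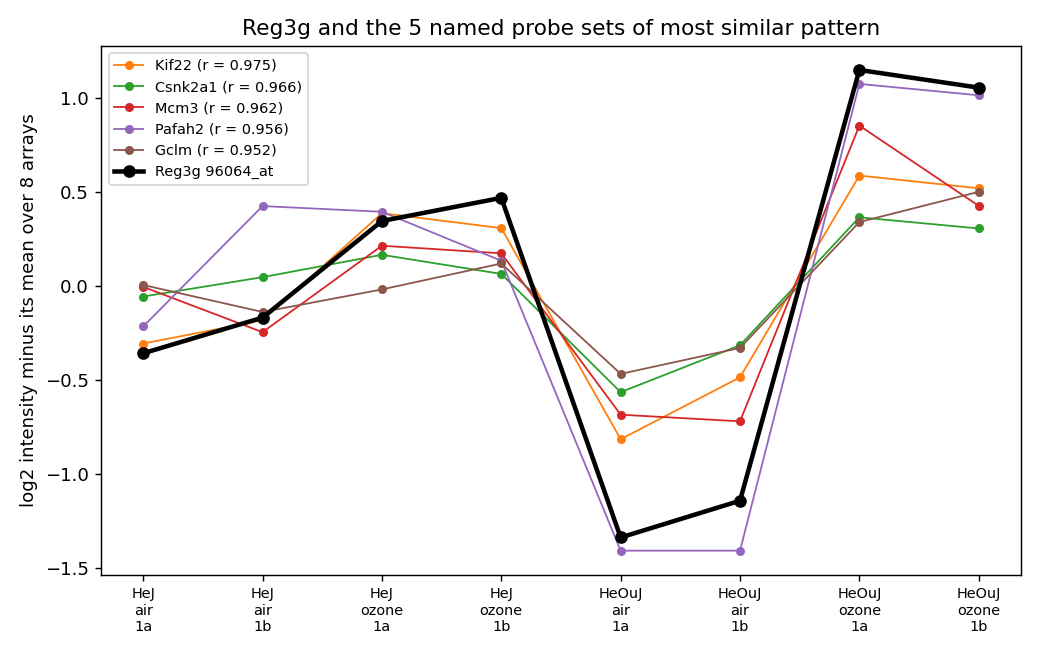
Log2 intensity of Reg3g 96064_at (black) and of the 5 named probe sets most like it, each minus its own mean over the 8 arrays; lines only join the points of a probe set. All 6 dip in HeOuJ air and peak in HeOuJ ozone, with Pearson r from 0.952 for Gclm to 0.975 for Kif22.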

How the data were processed

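Each array's deposited file gives a linear intensity for every probe set. The arrays' means after 2% trimming were 800.39 to 800.41, so the scaling was part of the deposit. Which software produced the intensities is not given in the sources read here. From 12488 probe sets 66 controls were removed. Values under the 20th percentile of all (69.63) were raised to it, log2 was taken, and the 10953 probe sets above this floor on at least 2 arrays were tested. Array medians were 351 to 386. The highest was that of HeOuJ ozone 1a, which also had the fewest values below the floor (17.7%, against 19.2% to 21% on the other arrays). The number of arrays limits the precision.

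One model of 4 group means over all 8 arrays was fitted in limma 3.58.1 under R 4.3.3 (eBayes with an intensity trend; 4 residual and 4.54 prior degrees of freedom), with Benjamini-Hochberg adjustment over all probe sets and a threshold of 0.05. It was run on simulated data with independent noise, which checked only that its mean estimates recover added shifts. That run does not bear on the calls or p-values of the real arrays. Fold changes are ratios on the floored scale, so those of dim probe sets are understated. Gene names come from an array annotation of 2016, updated through RefSeq; a listed gene is read from its brightest probe set. Upstream sequences are RefSeq's (GRCm38.p6), aligned with Biopython 1.88; all 5 genes matched by symbol.

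The members and gene lists were chosen with earlier results of these data known. Named genes are all members, and list genes past the threshold (at most 4 a list) or the 2 of smallest p. Also named are the 5 probe sets most like Reg3g, the followed genes Saa3, Lcn2, Il6 and Stat3, and markers needed for a check. Clps, Pla2g1b, Sftpc and the further markers given with their readings were named after their values were seen. Alternatives changed the scaling, the floor, the filter, the variance model, the arrays fitted, the replicate letters and a correction for RNA quality; the Gapdh ratio as covariate was added after seeing the data. Arrays 1a and 1b of the same group had identical values on 0 probe sets, and arrays of different groups were not compared in this way. Replicate rank correlations were 0.931 to 0.961, lowest in HeOuJ ozone.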

Additional observations from a re-analysis of the deposited data

How the results depend on the processing

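Reg3g 96064_at kept its direction in every comparison and alternative run. Its HeJ log2 change was 0.58 to 0.77 (adjusted p 0.457 to 1 in limma). Its HeOuJ change was 2.21 with log2(value + 32) and no floor, 2.59 with the actin ratio and 2.55 with the Gapdh ratio as covariate. With the actin and Gapdh ratios the difference of effects was 1.84 and 1.89 and the HeOuJ minus HeJ difference in ozone 1.06 and 0.99, and with the actin ratio that difference in air was -0.77. With the actin ratio the HeJ changes of Reg1, Reg3a and Reg3b 96009_s_at turned sign, to -0.13, 0.35 and 0.72. Leaving out 1 array, HeJ changes ran from -0.048 to 0.23 for Reg1, -0.37 to 0.27 for Reg3a, -0.88 to 0.57 for Reg3b 96009_s_at, -0.35 to 0 for Reg3b 161890_f_at and -0.64 to 0.082 for Reg2 161302_r_at. The probe sets past the threshold in HeJ, 0 as reported, were 8 without a filter, 1 among bright probe sets, 2 with array weights and 1 with the Gapdh ratio. In HeOuJ the 50 became 16 with a common median, 88 with a floor at the 30th percentile, 110 without a floor, 172 among bright probe sets, 6 with array weights, and 0 without an intensity trend, with either ratio or with the 4 HeOuJ arrays alone (1698 had an unadjusted p under 0.05 as reported). Leaving out 1 array gave 0 to 22, with 22 without HeJ air 1a and 0 without HeJ ozone 1a. The letters 1a and 1b were not shown to pair the arrays: deviations of same-lettered arrays correlated at -0.01 to 0.14, and with the replicate block 57 probe sets passed in HeOuJ and 0 in HeJ, where Reg3g 96064_at had 0.67 (adjusted p 0.906 in limma). The cause of these shifts was not tested. Below the floor, changes of Reg3a, Reg2 and the dim probe sets could not be measured.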
